A study of Bos taurus with 16 samples.

Results

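The genes described here are the subunits and inhibitors of NF-kappa-B in blood and uterus of dairy cows, measured in white blood cells (WBC) and in endometrium. They are 10 genes, the subunits NFKB1, NFKB2, REL, RELA and RELB, the inhibitors NFKBIA, NFKBIB, NFKBIE and NFKBIZ, and TNFAIP3, which encodes A20. Every non-control probe whose gene name in the scanner files was 1 of these symbols was taken. This gave 20 of 46615 probes and 10 of 26738 genes or transcripts on the array. RELA and NFKBIA had 4 probes each, NFKB1, RELB, NFKBIE and NFKBIZ had 2 each, and the other 4 genes had 1. The probe of a gene that was brightest over all arrays is called its lead probe and is numbered probe 1.

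Total RNA of 8 multiparous Holstein cows, untreated and sampled between days 45 and 55 postpartum, was hybridized to 16 one-colour arrays, each holding the RNA of 1 sample. The 4 groups were WBC of healthy cows, WBC of cows with subclinical endometritis (SCE), endometrium of healthy cows and endometrium of SCE cows. The healthy cows were 841, 850, 877 and 883, the SCE cows were 718, 833, 836 and 846, and each cow gave 1 array of either tissue. By the study's methods both status groups mixed cows in luteal and follicular phase, with more luteal cows in the SCE group. The study reported that phase changed the level of several endometrial genes in healthy cows. The phase of a single cow was not used here, so that status and phase are not fully separated. SCE is an inflammation of the endometrium without clinical signs, which was identified by histology and cytobrush. WBC RNA came from PAXgene blood tubes and endometrial RNA from whole biopsies, so all values are those of mixed cells, in which fewer cells of a type and less RNA per cell cannot be told apart. One slide held the WBC arrays and a second slide those of endometrium, so that tissue, RNA extraction and slide cannot be told apart.

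NF-kappa-B is a family of transcription factors that act as pairs of subunits and switch on genes of inflammation, immunity and cell survival. In resting cells the pairs are held in the cytoplasm by inhibitor proteins, which are degraded after the IKK kinases have marked them. Active NF-kappa-B raises the transcription of several of its own inhibitors and of TNFAIP3, which ends the signal, and the pathway is a main route by which bacterial products act on endometrial cells and leukocytes.

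The probes differ in where they bind along a transcript, and for NFKBIZ and NFKBIA this place went with the direction of the tissue difference described below. The sequences that carry this are shown 5′ to 3′ on the strand of the transcript, with the coordinates of the whole 60-base probe in the build named in the file headers, Btau_3.1. The probes placed earlier in the transcript are given whole and 30 bases are given of those near its end. Capitals mark bases that NFKBIA probes 2 and 3 have in common, which are 34 in all. These 2 probes are therefore not separate measurements of NFKBIA.
NFKBIZ probe 2, position 670 of the transcript, chr1:47298908-47298967, plus strand: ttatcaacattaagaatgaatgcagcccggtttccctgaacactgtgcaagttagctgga
NFKBIZ probe 1, position 3422, chr1:47306292-47306351, plus strand: aaagtatggctgttatgtgaatctgtccat
NFKBIA probe 4, position 819, chr21:46441432-46441491, minus strand: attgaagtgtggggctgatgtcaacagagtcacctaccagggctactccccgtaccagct
NFKBIA probe 3, position 1445, bases 15 to 44 of the probe, chr21:46440445-46440504, minus strand: cactacctgtcaAGGTGTGTGTTCCCCTCC
NFKBIA probe 2, position 1471, chr21:46440419-46440478, minus strand: AGGTGTGTGTTCCCCTCCTGTAAATAGTGT

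Levels are log2 spot intensities, quantile-normalized over the 16 arrays, and differences are differences of these log2 values. SCE and healthy cows were compared with limma's TREAT test, which asks whether a difference exceeds 1.2-fold, with p-values adjusted over all probes tested. Between 64.7% and 79.9% of the spots of an array were well above background. The endometrium array of SCE cow 833 stood apart from its tissue, its correlation with the others having a median of 0.940 against 0.973 to 0.979 for the other 7, and so did the WBC array of the same cow, at 0.972 against 0.984 to 0.989. The endometrium array of cow 833 was also the dimmest of its tissue. Its median signal above local background was 79, against 248 to 316 on the others, and its share of spots well above background was 64.7%. The WBC array of cow 833 was the brightest of its tissue, at 202.5 against 83 to 132. Both arrays of cow 833 were kept. Markers of the labelled tissues were checked. The mean of 5 pan-leukocyte genes lay between 14.79 and 15.40 on WBC arrays and between 10.19 and 11.31 on endometrium arrays, and that of 7 stromal genes between 8.65 and 8.97 on WBC arrays and between 12.23 and 13.78 on endometrium arrays.

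The first question was which of these genes differ in level between endometrium and WBC. Most did, and most were lower in endometrium. Of the 20 probes 15 passed TREAT over all cows, 12 lower and 3 higher in endometrium than in WBC. Beside this, 53.9% of all 46594 probes tested passed. As shares of all probes tested, 31.2% passed as lower and 22.7% as higher. Of the lead probes 7 were lower and 1 higher. For 9 of the 20 probes no endometrium array overlapped any WBC array, beside 37% of all probes without a missing value. Of the 20 differences 4 lay above 0, beside 41.2% of all probes, and 16 lay below 0. In healthy cows alone 12 probes passed (46.5% of all probes) and in SCE cows alone 14 did (45.3% of all probes). The median over all probes tested was -0.16 and that of the 10 lead probes -1.40. Quantile normalization within each tissue, which sets the scale of the tissues apart from each other, moved the median of all probes to 0.35 and that of the lead probes to -0.75, with 5 lead probes lower and 2 higher. Under it the calls over all probes split 79.2% higher and 20.8% lower in place of 42% and 58%.

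**Figure D1:**
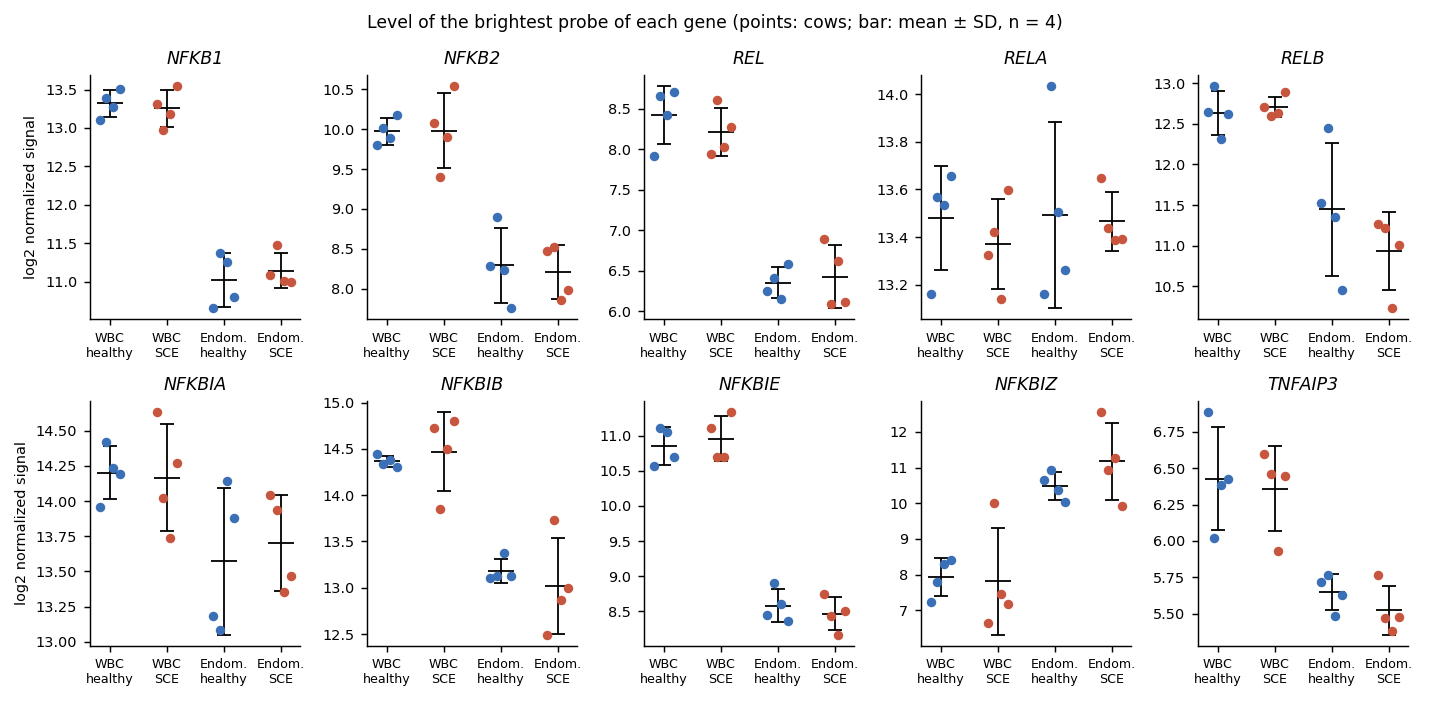
Log2 normalized signal of the lead probe of each gene on each array, by tissue and status, with the mean and SD of the 4 cows of a group (axes differ between genes and do not start at 0). NFKB1, NFKB2, REL, NFKBIB, NFKBIE and TNFAIP3 were lower on every endometrium array than on any WBC array, NFKBIZ was higher in endometrium than in WBC of every cow, and SCE and healthy cows overlapped in every panel.

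Among the subunits, NFKB1 encodes p105, the precursor of p50, the usual partner of RELA. In WBC its lead probe read 13.10, 13.39, 13.28 and 13.50 for healthy cows 841, 850, 877 and 883, while SCE cows 718, 833, 836 and 846 read 13.31, 12.97, 13.19 and 13.55. In endometrium it read 10.65, 11.38, 11.25 and 10.80 for the same healthy cows and 11.09, 11.48, 11.01 and 10.998 for the SCE cows. The tissues lay apart by more than 1 log2 unit, with no order of SCE and healthy cows in either. Endometrium was 4.61-fold lower (log2 -2.21, SE 0.13, TREAT adjusted p = 1.7e-09), and NFKB1 probe 2 gave -2.31 (SE 0.13).

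NFKB2, which encodes p100, the precursor of p52 in the noncanonical branch, ran from 9.40 to 10.54 in WBC and from 7.76 to 8.90 in endometrium, with a difference of -1.73 (SE 0.18, TREAT adjusted p = 2e-06). Under normalization within each tissue it was -0.78 (TREAT adjusted p = 0.0159), and under that normalization it did not pass in healthy cows alone (-0.73, TREAT adjusted p = 0.103) or in SCE cows alone (-0.83, TREAT adjusted p = 0.0558). REL, which encodes the lymphoid subunit c-Rel, ran from 7.92 to 8.71 in WBC and from 6.09 to 6.89 in endometrium, where it was well above background on 4 of the 8 arrays. Its difference was -1.93 (SE 0.16, TREAT adjusted p = 8.44e-08). Neither gene had an endometrium array as high as its lowest WBC array.

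RELB, the partner of p52, ran from 12.31 to 12.97 in WBC and from 10.23 to 12.45 in endometrium. The widest spread of its lead probe was thus in endometrium, where healthy cow 850 reached the WBC range. RELB was lower in endometrium by probe 1 (-1.48, SE 0.23, TREAT adjusted p = 0.000139) and by probe 2 (-1.15, SE 0.17, TREAT adjusted p = 0.000201). Under quantile normalization within each tissue neither passed (-0.72, TREAT adjusted p = 0.0539, and -0.37, TREAT adjusted p = 0.426).

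RELA, the p65 subunit that carries a transactivation domain, did not follow the other subunits. Its lead probe ran from 13.14 to 13.66 in WBC and from 13.16 to 14.04 in endometrium, so that the ranges overlapped. The difference was 0.05 (SE 0.13, 95% interval -0.22 to 0.33, TREAT adjusted p = 1). The other 3 probes lay between -0.44 and -0.34 and none passed. The direction of RELA followed the scale: within-tissue normalization put its probes 1 and 3 higher in endometrium, by 0.54 (TREAT adjusted p = 0.0434) and 0.66 (TREAT adjusted p = 0.0147), and the processed signal scaled to the 75th percentile put probe 4 lower by -0.62 (TREAT adjusted p = 0.0369). Probe 2 held 1 low WBC array, healthy cow 877 at 10.13 against 12.15 to 12.69 on the other 7, and without this cow it passed at -0.71 (TREAT adjusted p = 0.0142).

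NFKBIE and NFKBIB, inhibitors that act in the cytoplasm, were lower in endometrium. NFKBIE, which encodes I-kappa-B epsilon, ran from 10.56 to 11.34 in WBC and from 8.17 to 8.90 in endometrium by its lead probe. This was the largest negative difference among the 20 probes at 5.23-fold (-2.39, SE 0.13, TREAT adjusted p = 8.88e-10), and probe 2 gave -1.60 (SE 0.18, TREAT adjusted p = 5.81e-06), with 4 of 8 endometrium arrays well above background. NFKBIB, which encodes I-kappa-B beta, ran from 13.86 to 14.80 in WBC and from 12.49 to 13.73 in endometrium, a difference of -1.32 (SE 0.17, TREAT adjusted p = 2.46e-05). The arrays nearest to each other came from 1 cow, SCE cow 833, whose own difference was -0.13 against -2.23 to -1.01 in the other 7 cows.

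NFKBIA encodes I-kappa-B alpha, the inhibitor that active NF-kappa-B itself induces. Its lead probe read 13.96, 14.42, 14.23 and 14.19 in WBC of healthy cows 841, 850, 877 and 883, while WBC of SCE cows 718, 833, 836 and 846 read 14.63, 14.02, 13.74 and 14.27. In endometrium it read 13.18, 13.08, 14.14 and 13.88 in the healthy cows and 14.04, 13.94, 13.35 and 13.47 in the SCE cows. Every cow was lower in endometrium, but the ranges overlapped and the difference of -0.55 (SE 0.18) did not pass (TREAT adjusted p = 0.114). It passed on processed signals (-1.17, TREAT adjusted p = 0.000753) and at thresholds of 0 and 1.1-fold, and was -0.10 under normalization within each tissue. Probe 4, earlier in the transcript, gave -0.69 (SE 0.20, TREAT adjusted p = 0.0435), a call that was lost under 9 of 17 alternatives.

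Probes 2 and 3 of NFKBIA, which overlap each other near the end of the transcript, had the opposite sign. Probe 2 read 12.72, 13.07, 13.55 and 12.91 in WBC of the healthy cows and 12.55, 13.75, 12.17 and 12.23 in WBC of the SCE cows, in the order above. In endometrium it read 13.44, 13.90, 14.34 and 14.10 in the healthy cows and 14.47, 14.33, 13.60 and 13.65 in the SCE cows. All 8 cows were higher in endometrium, by 1.11 for probe 2 (SE 0.23, TREAT adjusted p = 0.00293) and 1.18 for probe 3 (SE 0.25, TREAT adjusted p = 0.00276). Scaled to the 75th percentile neither passed (0.66, TREAT adjusted p = 0.0982, and 0.78, TREAT adjusted p = 0.0507). In healthy cows alone neither probe passed (0.878 and 0.935). In SCE cows alone both passed (1.34 and 1.43). Without cow 718 neither passed in SCE cows (1.15, TREAT adjusted p = 0.0573, and 1.25, TREAT adjusted p = 0.0531).

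NFKBIZ encodes I-kappa-B zeta, a nuclear member of the family that is induced by bacterial products and interleukin-1 and acts on a subset of NF-kappa-B targets. Its lead probe, near the end of the transcript, read 7.24, 7.78, 8.28 and 8.41 in WBC of healthy cows 841, 850, 877 and 883, while WBC of SCE cows 718, 833, 836 and 846 read 6.64, 10.01, 7.44 and 7.18. In endometrium it read 10.66, 10.93, 10.36 and 10.02 in the healthy cows and 12.56, 10.94, 11.26 and 9.93 in the SCE cows. Only the WBC array of cow 833 reached the endometrium range. The lead probe was 7.78-fold higher in endometrium (2.96, SE 0.44, TREAT adjusted p = 4.07e-05), the largest positive difference among the 20 probes, and it was higher in 8 of 8 cows.

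NFKBIZ probe 2, which lies 2752 bases earlier in the same transcript, had the opposite sign in all 8 cows. It read 7.69, 7.19, 7.34 and 7.59 in WBC of the healthy cows and 7.72, 7.53, 7.35 and 7.78 in WBC of the SCE cows. In endometrium it read 6.50, 6.29, 6.25 and 6.29 in the healthy cows and 6.87, 7.45, 6.34 and 6.53 in the SCE cows. The difference was -0.96 (SE 0.14, TREAT adjusted p = 0.000319), and it did not pass under normalization within each tissue (-0.26, TREAT adjusted p = 0.705). A direction for NFKBIZ as a gene therefore depended on the probe, while probe 1 alone kept its call under all 17 alternatives, between 2.53 and 3.83.

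TNFAIP3, the A20 ubiquitin editor that ends the signal from the receptors, was close to the limit of the array. In WBC it read from 5.93 to 6.89 and was well above background on 1 of 4 healthy and 2 of 4 SCE arrays. In endometrium it read from 5.38 to 5.77 and was not well above background on any array, so that no exact level can be given there. Each endometrium array was also set at the higher of its own value and its lowest signal well above background. WBC was then 1.63-fold higher in healthy cows and 1.54-fold higher in SCE cows. As measured, the difference over all cows was -0.81 (TREAT adjusted p = 0.000947). The measured means were 6.43 in WBC and 5.65 in endometrium for healthy cows, against 6.36 and 5.52 for SCE cows. The 1.63-fold and 1.54-fold values are not lower bounds. They hold for the scale used here and rest on WBC means of which 3 of 8 arrays were well above background. The limit used was that of the array and not of this probe. In WBC of healthy cow 877 TNFAIP3 read 6.38 without being well above background, while the array's lowest signal well above background was 5.77. The difference of -0.81 on this scale was -2.18 on processed signals, -0.50 after normexp background correction and -0.42 under normalization within each tissue, where it did not pass (TREAT adjusted p = 0.173).

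**Figure D2:**
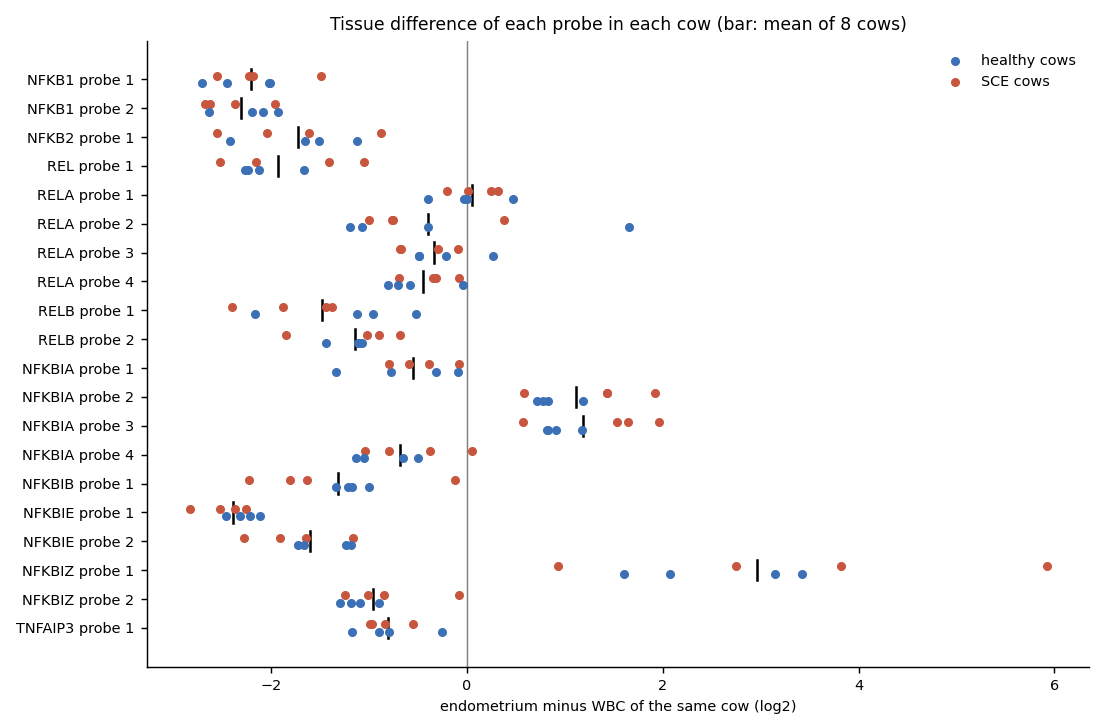
Difference between endometrium and WBC of the same cow (log2) for each of the 20 probes, with 1 point per cow and a bar at the mean of 8 cows. The probes of NFKB1, NFKB2, REL, RELB and NFKBIE lay left of 0 in every cow, while probes 2 and 3 of NFKBIA and probe 1 of NFKBIZ lay right of 0 in every cow.

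The disagreement between probes of 1 gene was tested within cows. The tissue difference of 1 probe was subtracted from that of another, for 16 pairs of probes, and the 8 cows were compared with 0 by a two-sided exact sign-flip permutation test, whose smallest p with 8 cows is 0.00781. NFKBIZ probe 1 exceeded probe 2 by 3.92 (SD 1.67, range 1.01 to 6.77) in 8 of 8 cows, with an exact p of 0.00781 and an adjusted p of 0.0156 over the 16 pairs. NFKBIA probe 2 exceeded probe 4 by 1.80 (SD 0.68) and probe 1 by 1.66 (SD 0.65), each in 8 of 8 cows with the same exact p. The probes of NFKB1 did not differ from each other beyond their spread (0.11, SD 0.24, 5 of 8 cows, exact permutation p = 0.281), and NFKBIA probe 1 and probe 4, which lie earlier in the transcript, did not either (0.14, SD 0.25, exact permutation p = 0.172). Without cow 833 the NFKBIZ pair gave 4.34 and NFKBIA probe 2 minus probe 4 gave 1.98. This test was added after the values had been seen.

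Genes with probes called in both directions were 852 of the 12184 genes with more than 1 probe on the array (6.99%), 3.14% of those with 2 probes and 15.1% of those with 4. Place along the transcript went with the sign. Over 7568 transcripts with probes more than 200 bases apart, the tissue difference of the probe nearest the 3′ end exceeded that of the probe nearest the 5′ end in 70.9%, by a median of 0.44. In size the NFKBIZ difference of 3.92 was matched or passed by 2.71% of these transcripts and the NFKBIA difference of 1.80, over 652 bases, by 19.4%. For RELA (0.50) 61.2% of the transcripts were as large, and for NFKB1 (0.11) 90.9%. The tissue difference of RELA probe 1 exceeded that of probe 4 by 0.50 (SD 0.22) and that of probe 3 by 0.39 (SD 0.21), each in 8 of 8 cows (exact permutation p = 0.00781, adjusted p = 0.0156). In NFKBIE the order was turned, with the 3′ probe 0.79 below the other in 8 of 8 cows (SD 0.32, exact permutation p = 0.00781, adjusted p = 0.0156). That other probe, probe 2, was well above background on 3 of 4 healthy and 1 of 4 SCE endometrium arrays. The turned order of probes 1 and 2 depended on the scale. It held after normexp (-2.32 and -1.36) but not on processed signals (-2.55 and -2.60).

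A 3′ index was formed for each array, the median signal of the 3′ probe minus that of the 5′ probe over these transcripts without those of the 10 genes, centred on the 16 arrays. It lay between -0.59 and -0.12 in WBC and between 0.32 and 0.49 in endometrium, with no overlap, so that index and tissue cannot be told apart. The WBC array nearest to endometrium was that of SCE cow 833 at -0.12, the array on which NFKBIZ probe 1 was also nearest to endometrium. Across the 8 WBC arrays the level of NFKBIZ probe 1 rose with the index (Pearson r = 0.976, exact permutation p = 4.96e-05, adjusted p = 0.00198 over 40 relations, Spearman rho = 0.976, exact permutation p = 0.000397, adjusted p = 0.0159). Without cows 718 and 833, the 2 farthest from the median of the index, r was 0.954 (exact permutation p = 0.00556).

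In WBC the index also went with NFKBIA probe 2 (r = 0.890, rho = 0.810, exact permutation p = 0.00191 and 0.0218) and probe 3 (r = 0.904, rho = 0.810, exact permutation p = 0.00243 and 0.0218), and in the opposite direction with NFKBIB (r = -0.946, rho = -0.881, exact permutation p = 0.000471 and 0.00724). The adjusted p-values of these r were 0.0191, 0.0194 and 0.00942, those of rho 0.174, 0.174 and 0.143, and without cows 718 and 833 r was 0.857, 0.882 and -0.824 (exact permutation p = 0.0361, 0.0403 and 0.0125). In endometrium, where the index covered a narrow range, only NFKBIB passed by r (r = -0.919, exact permutation p = 0.00126, adjusted p = 0.0168, rho = -0.857, exact permutation p = 0.0107, adjusted p = 0.143), and without cows 718 and 833 it did not (r = -0.715, exact permutation p = 0.0861). In all, 4 of 20 probes passed by r in WBC and 1 of 20 in endometrium. The relation with the index was run for these 20 probes only. Whether the counts differ from the share of all probes on the array was therefore not tested. These relations were formed after the values had been seen, and the part of the index in the tissue differences was not tested.

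**Figure D3:**
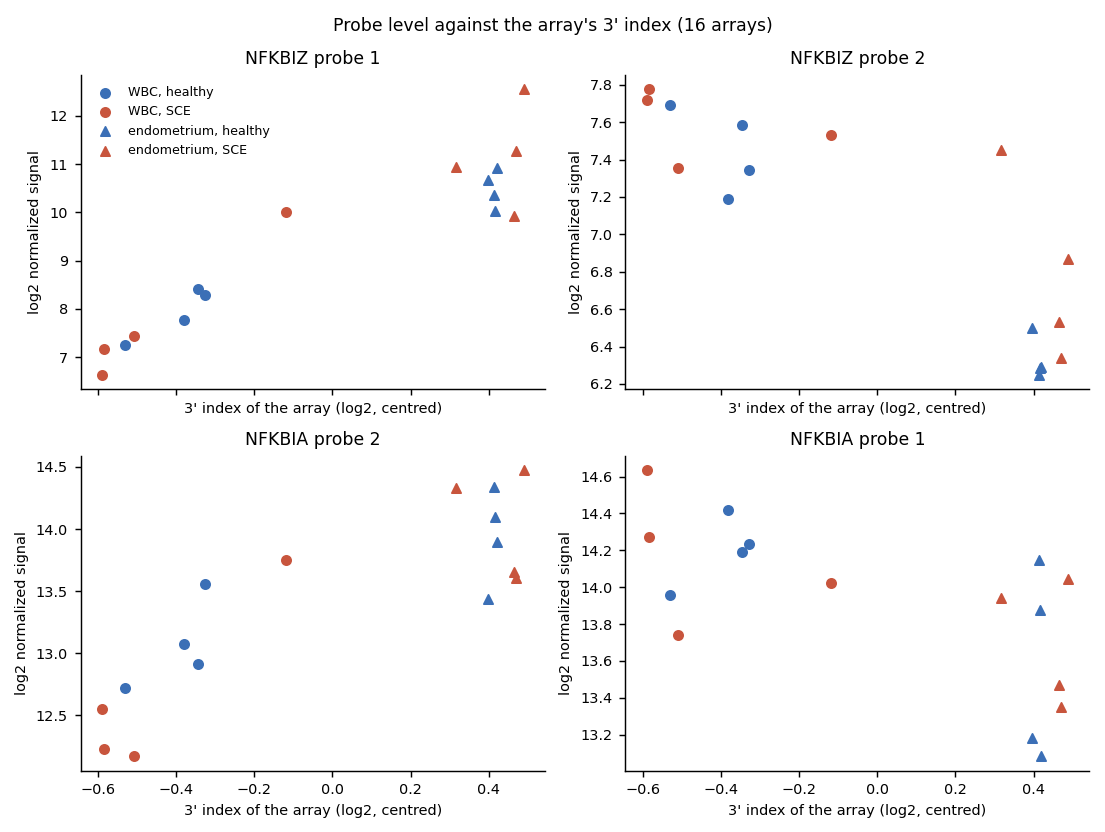
Level of NFKBIZ probes 1 and 2 and NFKBIA probes 2 and 1 (log2 normalized signal) against the 3′ index of the array, for 8 WBC and 8 endometrium arrays coloured by status. NFKBIZ probe 1 and NFKBIA probe 2 rose along the index among the WBC arrays, with r of 0.976 and 0.890, and the endometrium arrays form a separate cluster at 0.32 to 0.49.

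The question of the study was how SCE goes with expression in either tissue. For NF-kappa-B subunits and inhibitors no probe passed in endometrium. Of the 20 probes 0 passed TREAT with adjustment and 0 without it (TREAT p under 0.05), beside 0% and 0.453% of all 46598 probes, and 0 separated the 4 SCE from the 4 healthy cows without overlap, beside 1.63% of all probes. Without a fold threshold, on the authors' normalized values and under every other alternative run the count of adjusted calls was 0 as well. The differences ran from -0.51 (RELB probe 1) to 0.68 (NFKBIZ probe 1), 8 above and 12 below 0, with a median of -0.06 against -0.01 over all probes.

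The largest positive differences were those of NFKBIZ. Probe 1 averaged 11.17 ± 1.09 (SD, n = 4) in SCE and 10.49 ± 0.39 in healthy cows, a difference of 0.68 (SE 0.50, 95% interval -0.46 to 1.82, TREAT adjusted p = 1, two-sided exact permutation p = 0.314). The high value was that of cow 718 at 12.56, and without this cow the difference was 0.22, while without cow 846 it was 1.09. Probe 2 gave 0.46 (SE 0.23, 95% interval -0.07 to 0.998, exact permutation p = 0.0571, where 4 against 4 cows cannot go below 0.0286), and 0.25 without cow 833. RELB probe 1 averaged 10.93 ± 0.48 in SCE and 11.45 ± 0.81 in healthy cows (95% interval of the difference -1.46 to 0.43, exact permutation p = 0.314). Cow 850 at 12.45 was the high healthy cow, and without it the difference was -0.18, while without healthy cow 883 it was -0.84.

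The other lead probes stayed within 0.17 of 0 in endometrium with all 8 cows, though NFKBIB, at -0.16, gave -0.40 without cow 833 and 0.015 without cow 718. NFKBIA differed by 0.13 (95% interval -0.52 to 0.77), TNFAIP3 by -0.13 (-0.42 to 0.17) at levels not well above background in either group, NFKB1 by 0.12 (-0.34 to 0.58) and RELA by -0.03 (-0.48 to 0.43). Their intervals reached no farther than 0.77 on either side of 0, and changes within these intervals were not detectable with 4 cows a group.

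In WBC 0 of 20 probes passed with adjustment and 0 without it, beside 0% and 0.122% of all 46609 probes, and 0 lay without overlap, beside 1.3%. The differences ran from -0.40 (NFKBIA probe 3) to 0.47 (RELA probe 2), again 8 above and 12 below 0, with a median of -0.07. The value of RELA probe 2 came from the low array of healthy cow 877, and without this cow it was -0.14. NFKBIA probes 2, 3 and 4 were lower in SCE by -0.39, -0.40 and -0.35 (SE 0.34, 0.37 and 0.23), none of them passing, while NFKBIA probe 1 differed by -0.04 (SE 0.20). Cow 833 was the high SCE cow on probes 2 and 3, and without it they gave -0.75 and -0.80, while without cow 836 they gave -0.22 and -0.18, all with TREAT adjusted p = 1. NFKBIZ probe 1 differed by -0.11 (SE 0.63), and leaving out a cow put it between -0.84 (without cow 833) and 0.28 (without cow 718). NFKBIB differed by 0.10 and NFKB2 by 0.01, which were 0.31 and 0.20 without cow 833 and -0.01 and -0.18 without cow 846.

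**Figure D4:**
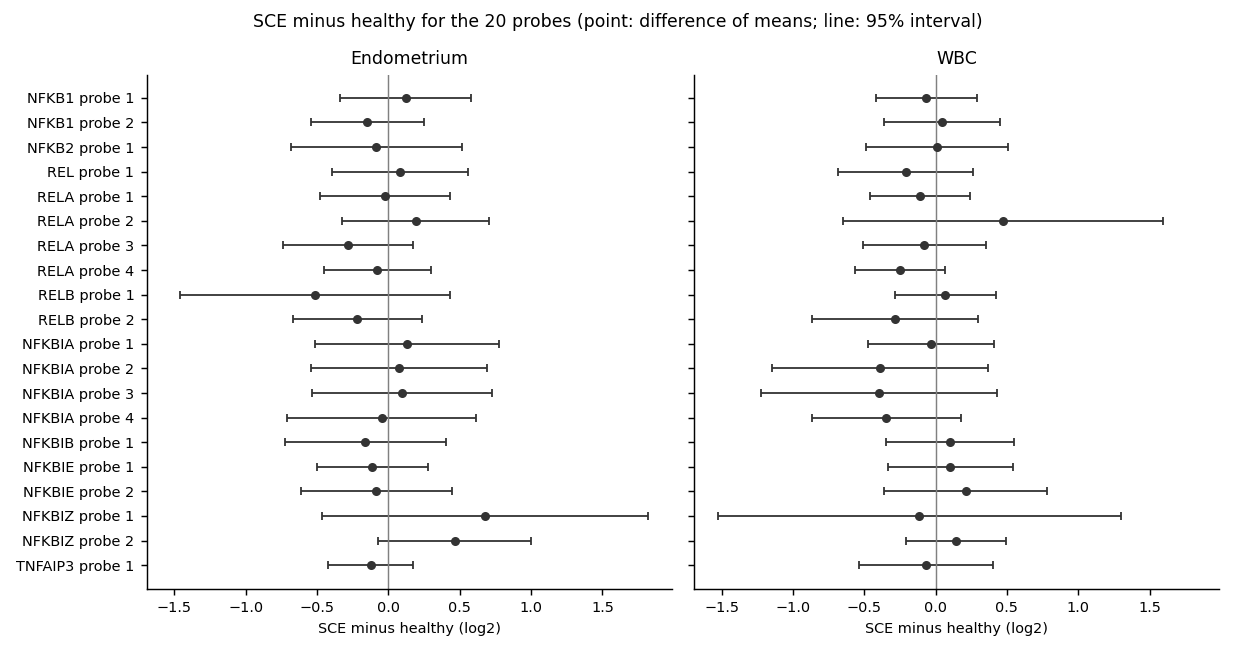
Difference of SCE minus healthy (log2) for each of the 20 probes in endometrium and in WBC, with the 95% interval of the difference from 4 SCE and 4 healthy cows. Every interval crosses 0, and the widest are those of NFKBIZ probe 1, RELB probe 1 in endometrium and RELA probe 2 in WBC.

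The SCE effect in endometrium was set against that in WBC in 1 model of all 16 arrays. None of the 20 probes passed with adjustment and 0 passed without it, beside 0% and 0.496% of all probes. The differences of the effects ran from -0.58 for RELB probe 1 (SE 0.46) to 0.79 for NFKBIZ probe 1 (SE 0.88, 95% interval -1.08 to 2.67), which was 1.601 without cow 833 and -0.06 without cow 718 and passed in neither case. With the cow as a replicate block the count of members was 0 too.

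Links within the family were examined across the 8 cows of a tissue for 6 pairs of lead probes, 12 relations in all. One passed by r: NFKB2 and RELB, whose products pair in the noncanonical branch, went together in endometrium (r = 0.907, exact permutation p = 0.00223, adjusted p = 0.0268, rho = 0.762, exact permutation p = 0.0368, adjusted p = 0.275). Without healthy cows 850 and 883, the highest and lowest on NFKB2, r was 0.743 (exact permutation p = 0.0597, adjusted p = 0.283). The call was also lost without cow 718, 836, 846, 850 or 883 alone, with r between 0.815 and 0.922. In WBC the same pair gave r = 0.459 (exact permutation p = 0.237). NFKBIA and NFKBIE in WBC gave r = 0.711 (exact permutation p = 0.0481, adjusted p = 0.289). NFKBIA and TNFAIP3 gave r = 0.158 in WBC (exact permutation p = 0.721), which was -0.879 without cows 718 and 836 (exact permutation p = 0.0167), and r = -0.192 in endometrium (exact permutation p = 0.624). TNFAIP3 was well above background on few WBC arrays and on no endometrium array, which limits these values.

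Genes around the family were taken from lists of the IKK kinases, adaptors, further inhibitors and targets, each by its lead probe. Between the tissues the kinases, adaptors and further inhibitors were mostly lower in endometrium, beside 31.2% of all probes lower and 22.7% higher. The target genes did not follow this direction. Of the 17 genes of the IKK complex and its adaptor kinases 9 were lower and 2 higher, with a median of -0.76. IKBKE, an IKK-related kinase, was lower (-2.87, SE 0.14), TAB2, an adaptor of the kinase TAK1, was lower (-2.60, SE 0.17), and CHUK, the IKK-alpha kinase of the noncanonical branch, was higher by 2.48 (SE 0.34), with TREAT adjusted p of 8.01e-11, 3.19e-09 and 1.77e-05.

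Of the 17 adaptors and ubiquitin ligases measured of 18, 12 were lower and 1 higher, with a median of -1.40. The paracaspase MALT1 (-3.68, SE 0.16), its partner in myeloid cells CARD9 (-3.62, SE 0.17) and TRAF5 (-2.83, SE 0.13), which was well above background on 2 of 8 endometrium arrays, had the largest differences. Of the 12 further inhibitors measured of 13, 10 were lower and 0 higher by TREAT with adjustment, with 1 higher without adjustment (23.9% of all probes), and a median of -1.41. The largest were TNFAIP8L2, a brake on leukocyte activation, at -4.87 (SE 0.17), TNIP1, an A20-binding protein, at -2.48 (SE 0.18) and the nuclear inhibitor NFKBID at -2.30 (SE 0.16).

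The 24 target genes measured of 25 split, with 8 higher and 9 lower in endometrium and a median of 0.30. The chemokine CCL2 was well above background on 8 of 8 endometrium and 0 of 8 WBC arrays, and the prostaglandin synthase PTGS2 on 8 of 8 and 1 of 8, so that no exact difference is given for either. The neutrophil chemokine CXCL8 was lower in endometrium (-3.51, SE 0.39). Most leukocyte lists were lower in endometrium, beside 31.2% of all probes lower and 22.7% higher. All 8 neutrophil, 8 T cell and 5 pan-leukocyte genes measured were lower in endometrium, with medians of -6.17, -3.68 and -4.84. Of the 7 stromal genes 5 were higher and 1 lower, and of the 6 endothelial genes 5 were higher and 0 lower. The 8 monocyte and macrophage genes split, with 4 lower and 2 higher (median -1.39). So did the 7 epithelial genes, with 3 lower and 3 higher (median -0.31). The part of these cell types in the differences of the NF-kappa-B genes was not tested.

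For SCE against healthy cows no gene of these lists passed TREAT with adjustment in either tissue. In endometrium 21 of the 24 target genes were above 0 with a median of 0.29, beside 49.1% of all probes above 0. PTGS2 gave 1.76 (SE 1.30), the chemokine CXCL5 0.94 (SE 0.41) and CXCL8 0.84 (SE 0.53). Without adjustment BCL2A1, a survival factor of leukocytes, was higher (0.76, SE 0.24, TREAT adjusted p = 1) and the endothelial adhesion molecule SELE lower (-1.14, SE 0.39, TREAT adjusted p = 1), the latter as measured, being well above background on 3 healthy and 0 SCE arrays.

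The mean of the target genes was 8.73, 9.43, 8.80 and 8.60 in endometrium of healthy cows 841, 850, 877 and 883 and 10.15, 9.21, 8.69 and 8.80 in that of SCE cows 718, 833, 836 and 846. Cow 718 was the highest and the groups overlapped. Without cow 718 the count was 13 of 24 genes above 0 with a median of 0.05, without cow 833 it was 17 of 24 with a median of 0.37, and without any 1 of the other cows it was between 16 and 23. Cow 718 was highest both on the target genes and on NFKBIZ probe 1. The same endometrium array was also highest of the 8 in the mean of the T cell genes (9.75 against 8.72 to 9.11), of the pan-leukocyte genes (11.31 against 10.19 to 10.90) and of the monocyte and macrophage genes (8.995 against 7.74 to 8.78). On the other leukocyte lists the endometrium array of SCE cow 833 was highest. The neutrophil mean was 9.078 in cow 833 and 8.423 in cow 718. The B cell mean was 9.477 in cow 833 and 9.001 in cow 718, below healthy cow 841 (9.116) and SCE cow 846 (9.078) as well.

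Markers of cell types were counted by sign in the same endometrial comparison, beside 49.1% of all probes above 0. No marker passed TREAT with adjustment. Neutrophil genes were above 0 for 7 of 8 (median 0.27), T cell genes for 8 of 8 (0.33), B cell genes for 4 of 4 measured of 7 (0.28), monocyte and macrophage genes for 5 of 8 (0.03), endothelial genes for 6 of 6 (0.41) and stromal genes for 0 of 7 (-0.46). Pan-leukocyte genes were above 0 for 4 of 5 (0.13) and epithelial genes for 6 of 7 (0.085). Single cows moved these counts. Without healthy cow 883 the count was 2 of 5 pan-leukocyte genes (-0.03), and without healthy cow 850 it was 4 of 7 epithelial genes (0.03). Without cow 718 the counts were 5 of 8 T cell genes (0.14) and 2 of 8 monocyte and macrophage genes (-0.07), and without cow 833 they were 2 of 4 B cell genes (0.11) and 1 of 7 stromal genes (-0.15). The mean neutrophil level lay between 7.60 and 8.09 in healthy and between 7.77 and 9.08 in SCE cows. The mean endothelial level lay between 10.47 and 11.24 in healthy cows and was 13.19 in SCE cow 833, and without this cow 0 of 6 endothelial genes were above 0 (median -0.26). The part of these cells in the target genes was not tested.

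In WBC 15 of 24 target genes were above 0 (48.1% of all probes), with a median of 0.08, and 11 of 24 without cow 833. CXCL8 was higher in SCE without adjustment (1.31, SE 0.49, TREAT adjusted p = 1). The IKK list had medians of -0.13 in endometrium and -0.04 in WBC, the adaptors 0.18 and 0.01, and the further inhibitors -0.06 and -0.02, with 0 calls with or without adjustment. The study had listed 10 genes for NF-kappa-B signalling in endometrium, of which 9 were measured. In endometrium 4 of these were above and 5 below 0, and in WBC 3 were above and 6 below 0. TNFRSF11B, the decoy receptor osteoprotegerin, passed in endometrium without adjustment only (-1.70, SE 0.66, TREAT adjusted p = 1). That list was chosen by the study on these samples and is not independent evidence of a direction.

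**Figure D5:**
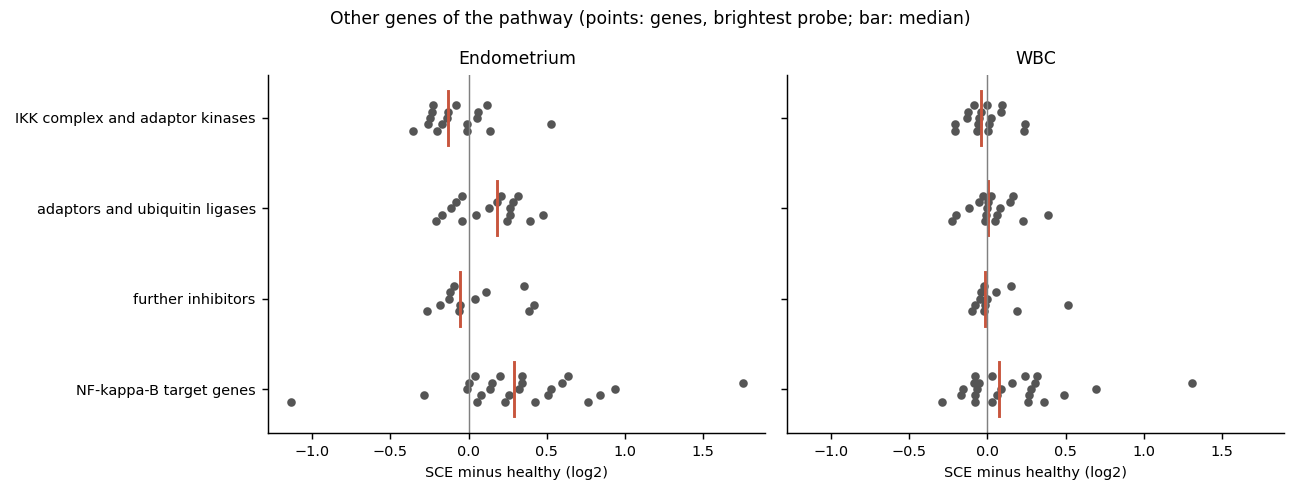
Difference of SCE minus healthy (log2) in endometrium and in WBC for the other genes of the pathway, with 1 point per gene (its lead probe) and a bar at the median of each list. In endometrium 21 of 24 target genes lay right of 0 with a median of 0.29, and 13 of 24 did once cow 718 was left out.

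The genes whose profile over the 16 arrays was most like that of 3 members were searched among 17683 probes of named genes well above background on all arrays, by the root mean square difference of centred log2 values. For NFKB1 these were KDM2A (0.13), SH2D3C (0.15) and EHBP1L1 (0.16), beside a spread of NFKB1 itself of 1.13. For NFKBIA they were RNF113A (0.24), TTLL12 (0.24) and TRAPPC12 (0.25), beside an own spread of 0.43. For TNFAIP3 they were KLHL36 (0.17), C24H18orf25 (0.17) and CSNK1D (0.18), beside an own spread of 0.46. TNFAIP3 itself was well above background on only 3 of the 16 arrays, so that its profile is mostly one of dim signal. The likeness is mostly that of the tissue difference, which was -2.21 for KDM2A and for NFKB1.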

How the data were processed

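WBC and endometrium of 4 SCE and 4 healthy cows, grouped by the labels, were measured on 16 one-colour (Cy3) arrays, a custom 60-mer design. The authors used Agilent Feature Extraction 10.10.1.1 to extract spot intensities, which they deposited, per the file headers, without normalization between arrays. They also deposited a table of intensities, whose columns all hold the same sorted values, as quantile normalization gives.

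Here log2 median signals were taken without background correction. Differences of dim probes such as TNFAIP3 depend on this choice. Control spots and spots marked as outliers (190 to 465 per array) were left out, values were quantile-normalized over 16 arrays, and spots of a probe averaged. At most 1 spot an array was saturated. The number of arrays limits the precision. Tests were lmFit and treat of limma 3.58.1 in R 4.3.3, at a threshold of 1.2-fold, and Benjamini-Hochberg adjustment over all probes at 0.05, within each tissue for SCE and in 1 fit of 4 groups for tissue and interaction. The 95% intervals are those of the fit. Exact permutation tests and correlations were run in R or in Python 3.11.15 with numpy 2.4.6, and tests were run on simulated data first. No low-signal filter was applied, so all 20 probes were tested.

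The members, lists and tests were chosen with earlier results of these data known. The genes named beyond the members are the 3 of each pathway list with the largest difference in a comparison, if some group had every array well above background, and any passing TREAT unadjusted for SCE. The largest of each list are named for tissue and, among targets, for SCE. Adding probes whose accession is a member's in the RefSeq gene table gave 20 probes again. Coordinates are those of the file headers (Btau_3.1). Genome, promoter and protein sequences were not used here.

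Alternatives were quantile normalization within each tissue, processed signal minus the 75th percentile, normexp with offset 50, the authors' values, a filter on probes well above background, a trended and robust prior, TREAT thresholds of 0 and 1.1-fold, the mean of a gene's probes, all arrays in 1 fit, slide row as a block, the cow as a replicate block, and each cow left out. The labels pair the WBC and endometrium arrays of each cow. The correlation over 23893 probes of their deviations from the group means was 0.07, 0.14, 0.04 and 0.12 in cows 841, 850, 877 and 883 and -0.14, -0.33, 0.04 and -0.05 in cows 718, 833, 836 and 846. Each sample is 1 animal.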

Additional observations from a re-analysis of the deposited data

Results flagged for a closer look

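In groups of 4 cows, the highest or lowest value was compared with the rest by the gap to its neighbour over the range of the group (Dixon's ratio, at its 95% critical value). Chance puts about 1 in 20 groups past that value, and 5 of 80 groups of member probes and 6 of 52 groups of lists were. RELA probe 2 was high at 12.53 in endometrium of SCE cow 833 (0.863) and low at 10.13 in WBC of healthy cow 877 (0.895). NFKBIB probe 1 was high at 13.38 in endometrium of healthy cow 877 (0.891). NFKBIE probe 2 was low at 7.44 in WBC of SCE cow 836 (0.885). NFKBIZ probe 2 was high at 6.50 in endometrium of healthy cow 841 (0.832).

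Among the lists, by their mean level, cow 833 stood apart 4 times. Its WBC array was high on the IKK complex and adaptor kinases (10.65, ratio 0.873) and on the study's endometrial NF-kappa-B list (10.04, ratio 0.869) and low on the further inhibitors (11.54, ratio 0.877), and its endometrium array was high on the endothelial markers (13.19, ratio 0.837). Healthy cow 877 was low on the further inhibitors in WBC (11.54, ratio 0.94) and high on the adaptors and ubiquitin ligases in endometrium (9.69, ratio 0.836). No probe had all healthy cows on one side of 0 and all SCE cows on the other for the tissue difference (0 of 20).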

How the results depend on the processing

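The counts of 0 for SCE against healthy in either tissue and for the contrast of these effects held under every alternative run, including without each cow, and 26, 25 and 14 of the uncalled values changed sign. For endometrium against WBC, leaving out a cow gave 14 to 16 probes and 8 lead probes over all cows, 10 to 14 and 6 to 8 in healthy cows, and 11 to 14 and 8 in SCE cows. With the cow as a replicate block the counts were 14, 12 and 14 probes, and NFKBIA probe 4 lost its call (adjusted p = 0.052). The block changed no other call of a member over all cows. Quantile normalization within each tissue gave 4 lead probes in place of 8 in healthy cows, and turned RELA probe 3 to 0.66 (0.77 in healthy cows). The cause was not tested. Tissue differences of dim probes moved with background and scale, to -3.01 for REL, -2.60 for NFKBIE probe 2, -1.54 for NFKBIZ probe 2 and -2.18 for TNFAIP3 on processed signals scaled to the 75th percentile, and to -1.57, -1.36, -0.67 and -0.50 after normexp. The count of relations between pairs of members was 0 in place of 1 without the 2 cows farthest from the median and between 0 and 1 without each cow, being 0 without cows 718, 836, 846, 850 or 883. Leaving out a cow leaves 3 arrays in a group. TNFAIP3 in endometrium, and REL and NFKBIE probe 2 on 4 of 8 endometrium arrays, were not well above background, which limits their differences.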
